A study of Mus musculus with 6 samples.

Results

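The genes described here carry a T cell's calcium signal from the membrane to the nucleus, and they were compared between 2 kinds of induced T (iT) cell, those carrying only CD4 (CD4SP) and those carrying only CD8 (CD8SP). The 10 genes were chosen by symbol, and each was found once among the 23420 rows of the expression table. Orai1, Stim1, Stim2 and Itpr1 serve calcium release and entry. Ppp3ca and Ppp3cb encode catalytic subunits of the phosphatase calcineurin, Rcan1 encodes one of its inhibitors, and Nfatc1, Nfatc2 and Nfatc3 encode NFAT transcription factors. Expression was measured by RNA-seq of polyadenylated RNA in 6 spleen libraries, each made from 1000 sorted cells, with 3 libraries per population.

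Both populations descend from mouse pluripotent stem cells that carry a Runx1-p2a-Hoxa9 cassette in the Rosa26 locus, induced by doxycycline through a CAG-driven rtTA. The blood progenitors made from these cells were transplanted without doxycycline into irradiated B-NDG mice, 8 to 10 weeks old, which lack their own T, B and NK cells through NOD-Prkdc scid and Il2rg mutations. The spleens were taken 5 weeks later. Cells were sorted as CD45.2+ and negative for lineage markers including Ter119 and CD11b, and then as CD4+ or CD8+. The stated gates hold no CD3, TCR or NK1.1 marker. All 6 libraries share the cassette and the host, so neither is compared here. How many mice and stem cell clones stand behind the 3 libraries of a population is not given in the sources used here, and the p-values measure only the spread between these libraries.

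When a T cell receptor is engaged, phospholipase C gamma makes the messenger IP3, and IP3 receptors (Itpr1 to Itpr3) let calcium out of the endoplasmic reticulum (ER). STIM proteins sense the falling ER store and open ORAI channels in the plasma membrane, so that calcium flows in for a long time. Calcium bound to calmodulin switches on calcineurin, which removes phosphates from NFAT proteins and lets them enter the nucleus, where they drive genes such as Il2. Kinases such as GSK3 and DYRK put the phosphates back, and RCAN proteins bind calcineurin and restrain it. The immunosuppressants cyclosporin A and tacrolimus act on T cells by blocking calcineurin.

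Transcript levels, in TPM (transcripts scaled to a fixed total per library), summed to between 997896 and 998100 in each library. Ribosomal protein transcripts made up 24.1% to 28.7% of TPM in CD4SP and 32.1% to 35.9% in CD8SP libraries. Over all 10476 tested genes the log2 fold changes had a median of 0.28 toward CD4SP, and of 0.000 after median-of-ratios rescaling. With the ribosomal protein genes removed and the libraries rescaled, it was 0.143. Main results are therefore also given relative to 0.28. Of the genes past both limits, 81.5% were higher in CD4SP, against 62.0% after median-of-ratios rescaling and 57.1% after quantile normalization. CD4SP replicate 2 stood apart, with the lowest CD4SP value for 57.9% of tested genes. CD8SP replicate 3 did so in a similar way, with the lowest CD8SP value for 56.3%. CD4SP replicate 2 also held 6.56 TPM of the regulatory T cell gene Foxp3, against 142 and 167 TPM in CD4SP replicates 1 and 3 and 7.48 to 10.05 TPM in CD8SP libraries. CD8SP replicates 1 and 2 were closer than other pairs, with a median absolute log2 difference of 0.0750 over genes above 20 TPM against 0.170 to 0.313, and were counted as separate samples. CD3 genes were present in all libraries, with Cd3d at 979 to 1160 TPM, Cd3g at 713 to 1111 TPM and Cd3e at 34.6 to 67.5 TPM. Cd4 was at 279 to 331 TPM in CD4SP and at most 0.104 TPM in CD8SP libraries, while Cd8a was at most 2.93 TPM in CD4SP and at least 1038 TPM in CD8SP libraries. The other CD8 gene, Cd8b1, was at 24.3 to 36.0 TPM in CD4SP and 2197 to 2401 TPM in CD8SP libraries. Of other cell types, the B cell genes Ms4a1 and Pax5 had 0 TPM throughout. The level of Cd79a was 2.23 to 3.56 TPM in CD4SP and 1.52 to 1.73 TPM in CD8SP (adjusted p 0.170 by limma), and that of Cd79b 10.9 to 17.4 and 18.5 to 21.6 TPM (adjusted p 0.121 by limma). The 7 myeloid markers summed to 17.7 to 32.9 and 20.7 to 24.2 TPM, with S100a8 and S100a9 listed at 0. Among them Lyz2 was higher in CD4SP (22.1 ± 7.63 against 6.28 ± 2.40 TPM, SD, n = 3 each, adjusted p 0.00872 by limma) and Cd68 was higher in CD8SP (2.88 ± 3.24 against 15.5 ± 2.02 TPM, adjusted p 0.0127 by limma). The 3 NK cell markers summed to 4.45 to 10.6 TPM across the CD4SP libraries, against 44.7 to 52.1 TPM across the CD8SP ones, with Ncr1 listed at 0. The 4 regulatory T cell markers summed to 948 to 1235 TPM across the CD4SP libraries, against 145 to 171 TPM across the CD8SP ones. Most of each sum was Ctla4, at 814 to 937 TPM in CD4SP and 124 to 149.6 TPM in CD8SP libraries. The part of the markers of other cells or of regulatory T cells in the results below was not tested. Erythroid markers reached at most 1.11 TPM in all.

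Of the 10 genes, 3 were higher in CD4SP iT cells past the study's own criterion of an adjusted p under 0.05 and more than 2-fold. These were Nfatc1, the inducible NFAT, Orai1, the pore of the calcium channel, and Itpr1, an IP3 receptor. Among all tested genes, 7.92% met this criterion in that direction. The STIM sensors, Ppp3ca, Ppp3cb, Rcan1, Nfatc2 and Nfatc3 did not pass (adjusted p 0.101 to 0.633 by limma). No member was called higher in CD8SP by limma, and none had an unadjusted p under 0.05 in that direction (5.69% of all tested genes had), whereas 5 had one toward CD4SP (31.4% of all tested genes had). On the adjusted p alone the members called were again Nfatc1, Orai1 and Itpr1, against 17.6% of all tested genes higher in CD4SP and 3.23% higher in CD8SP. After median-of-ratios rescaling and after quantile normalization, Ppp3ca also passed on the adjusted p, toward CD8SP (0.0438 and 0.0430 by limma) and short of 2-fold. In 4 of the 10 genes all CD4SP libraries lay above all CD8SP libraries, which held for 36.6% of tested genes. In bulk libraries, fewer cells with a transcript and less of it per cell cannot be told apart.

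**Figure D1:**
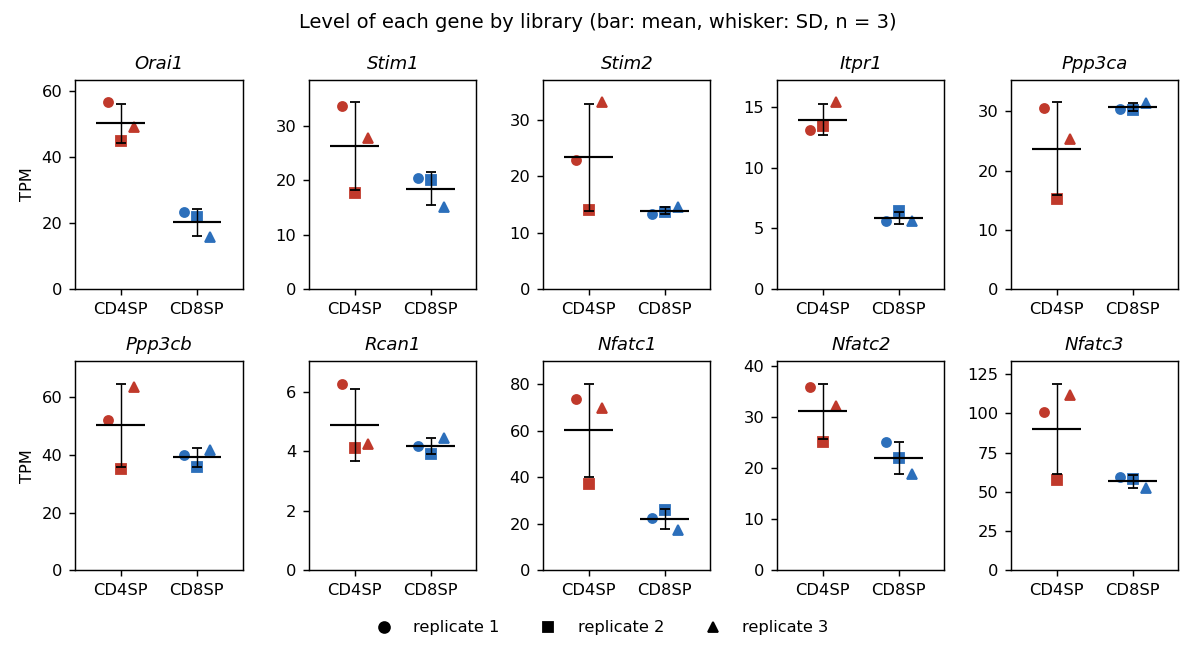
TPM of the 10 genes in each library, one panel per gene with its own axis from 0, with CD4SP libraries in red and CD8SP in blue. Markers show the replicate, bars the mean and whiskers the SD (n = 3). The CD4SP and CD8SP points are clearly apart for Orai1 and Itpr1, while for Stim1, Stim2, Ppp3cb and Nfatc3 the CD4SP replicate 2 square sits at or near the CD8SP level.

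Orai1 (chromosome 5, 123015074 to 123030456, plus strand) encodes the pore-forming subunit of the store-operated channel. Its level was 56.6, 44.7 and 49.1 TPM over CD4SP replicates 1 to 3, against 23.3, 21.9 and 15.6 TPM over CD8SP replicates 1 to 3, and values of other genes are given in the same order. The lowest CD4SP library was well above the highest CD8SP library. The log2 fold change was 1.28 (SE 0.19, adjusted p 0.00292 by limma), which is 0.99 above the median of all genes. After median-of-ratios rescaling and after quantile normalization it was 0.98 in each (adjusted p 0.00455 and 0.00458 by limma), just short of the 2-fold limit. The annotation places exons of Gm2479 on the opposite strand over Orai1 exons, and without stated strand use their reads cannot be told apart.

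The closest relatives of Orai1 did not pass the test. Orai2, which forms channels together with Orai1, was at 64.0, 49.2 and 64.9 TPM across the CD4SP libraries, against 51.7, 55.8 and 43.7 TPM across the CD8SP ones (log2 fold change 0.23, adjusted p 0.338 by limma). Orai3 was at 33.2, 28.4 and 36.1 TPM across the CD4SP libraries, against 43.6, 41.2 and 33.2 TPM across the CD8SP ones (log2 fold change -0.26, adjusted p 0.282 by limma). Both sets of libraries overlapped. A share within a library does not depend on how that library was scaled, and Orai1 made up 36.8%, 36.6% and 32.7% of summed ORAI TPM in CD4SP and 19.7%, 18.4% and 16.8% in CD8SP libraries. The shares did not overlap, and the means of 35.3% ± 2.31 and 18.3% ± 1.41 (SD, n = 3 each) lay far apart. An exact permutation test, two-sided, gave p = 0.1, which is as low as 3 libraries against 3 can go, and 0.2 after adjustment over the 8 shares compared. Orai1 had the lowest TPM of the family in every CD8SP library, and Orai3 in every CD4SP library.

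The sequence before the Orai1 start is shown because Orai1 is the called member whose RefSeq promoter entry is at hand. Promoter entries were matched for 7 of the 10 genes, Nfatc2, Nfatc3, Ppp3cb, Rcan1, Stim1, Stim2 and Orai1. The core letters that NFAT proteins recognise, GGAAA or its reverse complement TTTCC, were searched in the 250 bases before each start on both strands, and any match would be in capitals. This Orai1 window (GRCm38.p6, chr5:123014824-123015073, plus strand) held 0 matches, and 55.6% of all 32851 promoter windows of this length held at least 1.
Orai1 promoter: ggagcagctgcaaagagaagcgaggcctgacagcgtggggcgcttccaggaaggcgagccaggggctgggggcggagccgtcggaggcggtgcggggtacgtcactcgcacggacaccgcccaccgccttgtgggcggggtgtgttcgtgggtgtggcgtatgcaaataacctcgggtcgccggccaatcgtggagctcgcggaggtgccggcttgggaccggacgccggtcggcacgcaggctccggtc

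The ER calcium sensors were both detected in every library. Stim1 (chromosome 7, 102267806 to 102437319), the main sensor in T cells, was at 33.6, 17.7 and 27.7 TPM across the CD4SP libraries, against 20.4, 19.96 and 15.0 TPM across the CD8SP ones. CD4SP replicates 1 and 3 were above all CD8SP libraries and CD4SP replicate 2 was among them. On the log2 scale CD4SP and CD8SP differed by 0.45 (SE 0.25, adjusted p 0.220 by limma). Stim2 (chromosome 5, 53998499 to 54121057), which responds to smaller losses of ER calcium, was at 22.8, 14.0 and 33.1 TPM across the CD4SP libraries, against 13.3, 13.7 and 14.6 TPM across the CD8SP ones. Again only CD4SP replicate 2 lay within the CD8SP range, and the log2 fold change was 0.63 (SE 0.28, adjusted p 0.141 by limma). Without CD4SP replicate 2 both passed on the adjusted p, at log2 fold changes of 0.71 for Stim1 (adjusted p 0.0302 by limma) and 0.94 for Stim2 (adjusted p 0.0141 by limma). With any other single library left out, neither passed (adjusted p 0.228 to 0.504 by limma). After median-of-ratios rescaling and quantile normalization the log2 fold changes were lower, 0.16 and 0.15 for Stim1 and 0.34 and 0.30 for Stim2 (adjusted p 0.389 to 0.664 by limma). Stim1 made up 53.6% ± 7.26 of the 2 STIM transcripts in CD4SP and 56.9% ± 5.44 (SD, n = 3 each) in CD8SP libraries, with overlapping libraries (exact two-sided permutation p 0.6, adjusted 0.6).

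Itpr1 (chromosome 6, 108213096 to 108551109) encodes the type 1 IP3 receptor, the ER channel that starts the calcium signal. It was at 13.1, 13.4 and 15.4 TPM across the CD4SP libraries, against 5.58, 6.39 and 5.57 TPM across the CD8SP ones. Every CD4SP value was more than 2 times every CD8SP value. This is a log2 fold change of 1.13 (SE 0.19, adjusted p 0.00469 by limma), or 0.84 above the median of all genes. It fell below the 2-fold limit after median-of-ratios rescaling (0.85, adjusted p 0.0129 by limma) and quantile normalization (0.76, adjusted p 0.0236 by limma), and passed the adjusted p in both. Exons of Gm44040 and Gm44101 lie over Itpr1 exons on the opposite strand.

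The type 2 receptor gene Itpr2 was at 15.9, 12.1 and 16.1 TPM across the CD4SP libraries, against 8.81, 8.95 and 9.27 TPM across the CD8SP ones. It was higher in CD4SP on the adjusted p but not past 2-fold (log2 fold change 0.64, adjusted p 0.0452 by limma). Itpr3 was at 9.96 to 12.1 TPM across the CD4SP libraries, against 9.32 to 10.8 TPM across the CD8SP ones and did not pass (log2 fold change 0.12, adjusted p 0.656 by limma). The Itpr1 share of the 3 receptor genes was 33.7%, 35.6% and 36.8% in CD4SP and 23.5%, 25.9% and 21.7% in CD8SP libraries. These did not overlap, with a difference of 11.7 percentage points (exact two-sided permutation p 0.1, adjusted 0.2). The summed IP3 receptor level was 39.5 ± 2.20 TPM in CD4SP and 24.7 ± 0.980 TPM (SD, n = 3 each) in CD8SP libraries, also without overlap (exact permutation p 0.1).

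Calcineurin A, the catalytic subunit, comes from Ppp3ca, Ppp3cb and Ppp3cc. Ppp3ca (chromosome 3, 136670124 to 136937727) was at 30.6, 15.2 and 25.4 TPM across the CD4SP libraries, against 30.4, 30.3 and 31.5 TPM across the CD8SP ones. The CD8SP libraries were close together, CD4SP replicate 1 lay among them and CD4SP replicate 2 was far below. Ppp3ca was the only member with a negative log2 fold change, -0.41 (SE 0.24, adjusted p 0.246 by limma), or -0.70 relative to the median of all genes. After median-of-ratios rescaling it was -0.71 (adjusted p 0.0438 by limma) and after quantile normalization -0.72 (adjusted p 0.0430 by limma), and without CD4SP replicate 2 it was -0.14 (adjusted p 0.453 by limma).

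Ppp3cb (chromosome 14, 20499364 to 20546573) was at 52.2, 35.0 and 63.7 TPM across the CD4SP libraries, against 39.9, 35.7 and 41.9 TPM across the CD8SP ones. CD4SP replicates 1 and 3 were the highest and CD4SP replicate 2 the lowest of all 6 (log2 fold change 0.31, SE 0.22, adjusted p 0.322 by limma). Without CD4SP replicate 2 the log2 fold change was 0.55 (adjusted p 0.0293 by limma), whereas median-of-ratios rescaling gave 0.01 and quantile normalization 0.03 (adjusted p 0.976 and 0.948 by limma). Ppp3cb did not pass with any other single library left out (adjusted p 0.377 to 0.711 by limma). Ppp3cc varied widely within each population, at 76.0, 48.0 and 26.0 TPM across the CD4SP libraries, against 68.9, 75.8 and 46.1 TPM across the CD8SP ones (adjusted p 0.399 by limma). Summed calcineurin A was 124 ± 31.2 TPM in CD4SP and 134 ± 12.2 TPM (SD, n = 3 each) in CD8SP libraries, and these overlapped (exact two-sided permutation p 0.6). The Ppp3ca share was 18.9% ± 3.29 and 23.2% ± 2.78 (exact p 0.3, adjusted 0.343), and the Ppp3cb share was 41.3% ± 12.3 and 29.6% ± 5.03 (SD, n = 3 each; exact p 0.2, adjusted 0.267).

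The regulatory subunit and the calcium carrier of calcineurin were somewhat higher in CD4SP. Ppp3r1, which encodes calcineurin B, was at 46.2, 33.6 and 53.9 TPM across the CD4SP libraries, against 29.0, 27.0 and 28.5 TPM across the CD8SP ones (log2 fold change 0.62, adjusted p 0.0499 by limma). Calm2 and Calm3, 2 of the 3 calmodulin genes, had log2 fold changes of 0.48 and 0.55 (adjusted p 0.0138 and 0.0192 by limma). Ppp3r2 was listed at 0 in all libraries. Of the 7 tested calmodulin and calcineurin genes, 3 passed on the adjusted p, all toward CD4SP (17.6% of all tested genes did), and 0 passed 2-fold as well by limma. At an unadjusted p under 0.05 by limma, 4 were higher in CD4SP, beside 31.4% of all tested genes.

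Rcan1 (chromosome 16, 92391953 to 92470867, minus strand) encodes a calcineurin inhibitor whose own transcription is raised by NFAT. It had the lowest mean TPM of the 10 genes in both populations. It was at 6.28, 4.12 and 4.26 TPM across the CD4SP libraries, against 4.17, 3.91 and 4.46 TPM across the CD8SP ones. Apart from CD4SP replicate 1, all libraries lay between 3.91 and 4.46 TPM. The log2 fold change was 0.17 (SE 0.24, adjusted p 0.633 by limma), and it turned negative under median-of-ratios rescaling (-0.09) and quantile normalization (-0.21). The table gives 1 value per gene, so transcripts from different Rcan1 starts cannot be told apart. Rcan3, of the same inhibitor family, was at 15.2, 10.3 and 14.4 TPM across the CD4SP libraries, against 0.588, 3.23 and 2.95 TPM across the CD8SP ones. It had the largest log2 fold change of the tested genes in the pathway lists, 2.25 (SE 0.39, adjusted p 0.00562 by limma), and Rcan2 was listed at 0 throughout. Fkbp1a, which encodes the tacrolimus-binding protein FKBP12, was at 261, 313 and 300.3 TPM across the CD4SP libraries, against 149, 152 and 171 TPM across the CD8SP ones (log2 fold change 0.88, adjusted p 0.00201 by limma).

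The windows before the 2 Rcan1 starts listed by RefSeq are shown because the gene is known as a readout of NFAT activity through its inner start. Capitals mark GGAAA or TTTCC, and each window is written 5′ to 3′ along the gene. The outer window (GRCm38.p6, chr16:92466170-92466419, minus strand) held 0 matches. The inner window (chr16:92400079-92400328, minus strand), before a start 70789 bases inside the annotated gene, held 3, and 6.39% of all windows held 3 or more. It also held 1 match to the AP-1 letters TGACTCA or its reverse complement TGAGTCA, which 4.46% of windows held at least once, and the matches to the 2 motifs did not overlap. Of the other members, the Ppp3cb window held 3 matches to the NFAT letters, the 2 Nfatc2 windows 3 and 1, the 2 Nfatc3 windows 1 and 0, and those of Stim1 and Stim2 0 each. A match is a run of letters and not a measured binding site.
Rcan1 outer promoter: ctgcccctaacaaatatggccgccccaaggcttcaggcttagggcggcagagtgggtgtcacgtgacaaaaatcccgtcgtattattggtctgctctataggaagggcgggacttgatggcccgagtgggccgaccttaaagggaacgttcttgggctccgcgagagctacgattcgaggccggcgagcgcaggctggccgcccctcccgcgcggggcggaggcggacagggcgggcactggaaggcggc
Rcan1 inner promoter: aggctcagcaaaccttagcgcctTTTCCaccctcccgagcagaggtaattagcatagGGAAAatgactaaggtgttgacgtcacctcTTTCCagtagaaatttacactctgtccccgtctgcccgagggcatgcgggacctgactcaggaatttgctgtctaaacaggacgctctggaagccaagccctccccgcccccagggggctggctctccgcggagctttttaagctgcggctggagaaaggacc

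Nfatc1 (chromosome 18, 80606205 to 80713071) encodes NFATc1, which activated T cells make in larger amounts through NFAT itself. It was at 73.8, 37.3 and 69.8 TPM across the CD4SP libraries, against 22.7, 26.1 and 17.3 TPM across the CD8SP ones. All CD4SP libraries were above all CD8SP libraries, with CD4SP replicate 2 nearest to them. With a log2 fold change of 1.37 (SE 0.27, adjusted p 0.0106 by limma), Nfatc1 had the largest of the 10 genes, 1.08 above the median of all genes. It stayed past 2-fold under both rescalings, at 1.07 and 1.08, and was 1.68 without CD4SP replicate 2. The table does not separate short from long Nfatc1 isoforms.

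Nfatc2 (chromosome 2, 168476410 to 168601657) encodes NFATc2, which resting T cells already hold in the cytoplasm. It was at 35.8, 25.1 and 32.2 TPM across the CD4SP libraries, against 25.0, 22.0 and 18.9 TPM across the CD8SP ones. The populations touched without overlapping, since CD4SP replicate 2 and CD8SP replicate 1 were almost equal. The log2 fold change of 0.47 (SE 0.19) did not pass (adjusted p 0.105 by limma), and was 0.62 without CD4SP replicate 2 (adjusted p 0.0292 by limma). Nfatc2 did not pass with any other single library left out (adjusted p 0.152 to 0.256 by limma). Its log2 fold change was 0.18 and 0.17 after the same rescalings (adjusted p 0.429 and 0.471 by limma).

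Nfatc3 (chromosome 8, 106058840 to 106130537), a factor with a known part in thymocyte development, had the highest mean of the 10 genes in both populations. It was at 101, 57.7 and 112 TPM across the CD4SP libraries, against 59.7, 58.5 and 52.2 TPM across the CD8SP ones. CD4SP replicates 1 and 3 stood well above the other libraries, which were all close together. The log2 fold change was 0.60 (SE 0.23, adjusted p 0.101 by limma), and 0.89 without CD4SP replicate 2 (adjusted p 0.00399 by limma). With any other single library left out, the log2 fold change did not pass (adjusted p 0.168 to 0.276 by limma). Median-of-ratios rescaling and quantile normalization lowered it to 0.30 and 0.35 (adjusted p 0.303 and 0.276 by limma). Its annotated exons overlap those of Esrp2 on the opposite strand, which was at most 0.399 TPM. Nfatc4 was listed at 0 in all libraries.

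Of the NFATc family, the Nfatc1 and Nfatc3 shares did not overlap between the populations. Nfatc1 made up 35.1%, 31.0% and 32.6% of NFATc transcripts in CD4SP and 21.2%, 24.5% and 19.5% in CD8SP libraries, a difference of 11.2 percentage points without overlap. Nfatc3 made up 47.9%, 48.1% and 52.3% in CD4SP and 55.6%, 54.9% and 59.0% in CD8SP libraries, a difference of -7.08 percentage points, also without overlap. For both, the exact permutation test gave p = 0.1 (adjusted 0.2), as low as it can go. The Nfatc2 share was 17.7% ± 2.98 in CD4SP and 21.8% ± 1.35 (SD, n = 3 each) in CD8SP libraries, and these overlapped (exact p 0.2, adjusted 0.267). CD4SP replicate 2, whose NFATc sum of 120.1 TPM was below the 210.2 and 214 TPM of replicates 1 and 3, had shares like theirs for Nfatc1 and Nfatc3. Nfat5, a relative that answers to osmotic stress and does not need calcineurin, was at 12.6, 14.7 and 11.8 TPM across the CD4SP libraries, against 5.40, 5.75 and 7.34 TPM across the CD8SP ones (log2 fold change 0.97, adjusted p 0.0127 by limma).

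**Figure D2:**
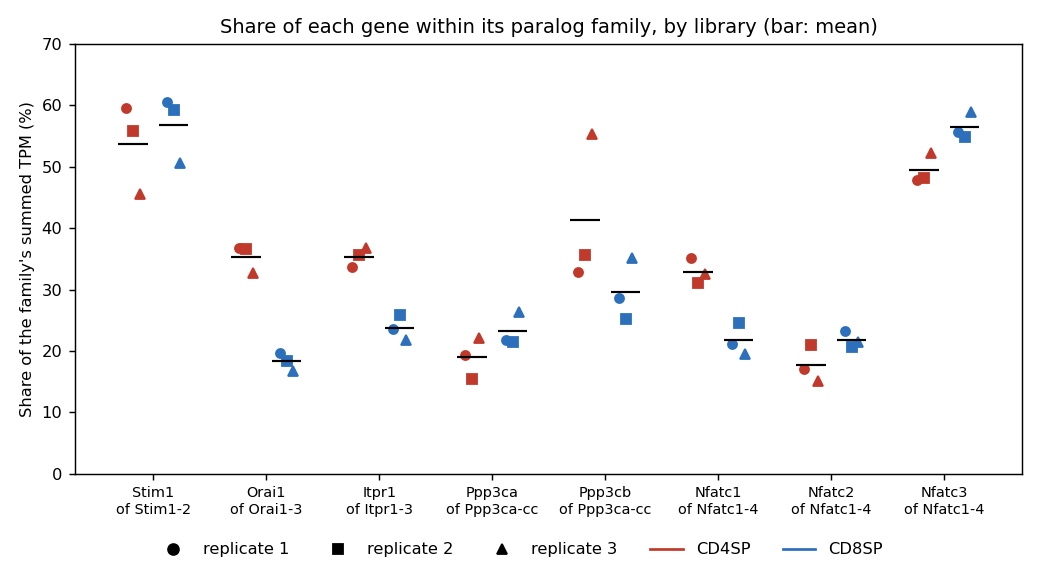
Share of each gene in the summed TPM of its paralog family, in percent, for each CD4SP (red) and CD8SP (blue) library, with markers for replicates and bars for the mean. Orai1, Itpr1 and Nfatc1 have larger shares in all CD4SP libraries and Nfatc3 a smaller one, while the shares of Stim1, Ppp3ca, Ppp3cb and Nfatc2 overlap.

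The other genes of the pathway were taken from 5 lists of 53 genes, members included, of which 46 were tested. Past both limits, CD4SP was higher for 7 and CD8SP for 0 by limma (2 had an unadjusted p under 0.05 in that direction, beside 5.69% of all tested genes). The number called was 4 after median-of-ratios rescaling and 4 after quantile normalization, with their directions not given here. Before rescaling and with members left out, 4 of 36 tested genes were called, and these were Atp2b1, Atp2b4, Mcu and Rcan3, beside 7.92% of all tested genes. Atp2b1 and Atp2b4 encode plasma membrane pumps that remove calcium from the cell. Atp2b1 was at 26.5, 22.2 and 29.9 TPM across the CD4SP libraries, against 10.8, 11.5 and 11.8 TPM across the CD8SP ones (log2 fold change 1.13, adjusted p 0.00357 by limma), and Atp2b4 had a log2 fold change of 1.25 (adjusted p 0.00296 by limma). Mcu, the pore of the mitochondrial calcium uniporter, was at 6.38, 10.5 and 7.27 TPM across the CD4SP libraries, against 1.44, 2.35 and 1.97 TPM across the CD8SP ones (log2 fold change 1.62, adjusted p 0.00439 by limma). In all 3, every CD4SP library was above every CD8SP library, which held for 36.6% of all tested genes. Relative to the median of all genes, the log2 fold changes were 0.84 for Atp2b1 and 0.96 for Atp2b4, short of the 2-fold limit. Those of Mcu and Rcan3 were 1.33 and 1.96.

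On the adjusted p alone, 14 of these 36 genes were higher in CD4SP and 1 was higher in CD8SP, beside 17.6% and 3.23% of all tested genes. Among them were 2 channels that shape the membrane potential. Kcnn4, a calcium-gated potassium channel that sustains calcium entry, was at 253, 197 and 271 TPM across the CD4SP libraries, against 124, 124 and 115 TPM across the CD8SP ones (log2 fold change 0.98, adjusted p 0.00270 by limma). Trpm4, a calcium-activated cation channel that limits entry, had a log2 fold change of 0.86 (adjusted p 0.0477 by limma). Of the kinases that return NFAT to the cytoplasm, Dyrk1a was higher in CD4SP (0.66, adjusted p 0.0133 by limma), as was Csnk1a1 (0.56, adjusted p 0.0282 by limma). Dyrk2, of the same kinase family as Dyrk1a, was the gene higher in CD8SP, at 18.7, 10.4 and 12.6 TPM across the CD4SP libraries, against 24.4, 24.9 and 23.5 TPM across the CD8SP ones (-0.80, adjusted p 0.0353 by limma). Relative to the median of all genes, the log2 fold change of Dyrk2 was -1.08, past 2-fold toward CD8SP. The median log2 fold change of the 36 genes was 0.51 and that of the 10 members 0.54, beside 0.28 for all tested genes.

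**Figure D3:**
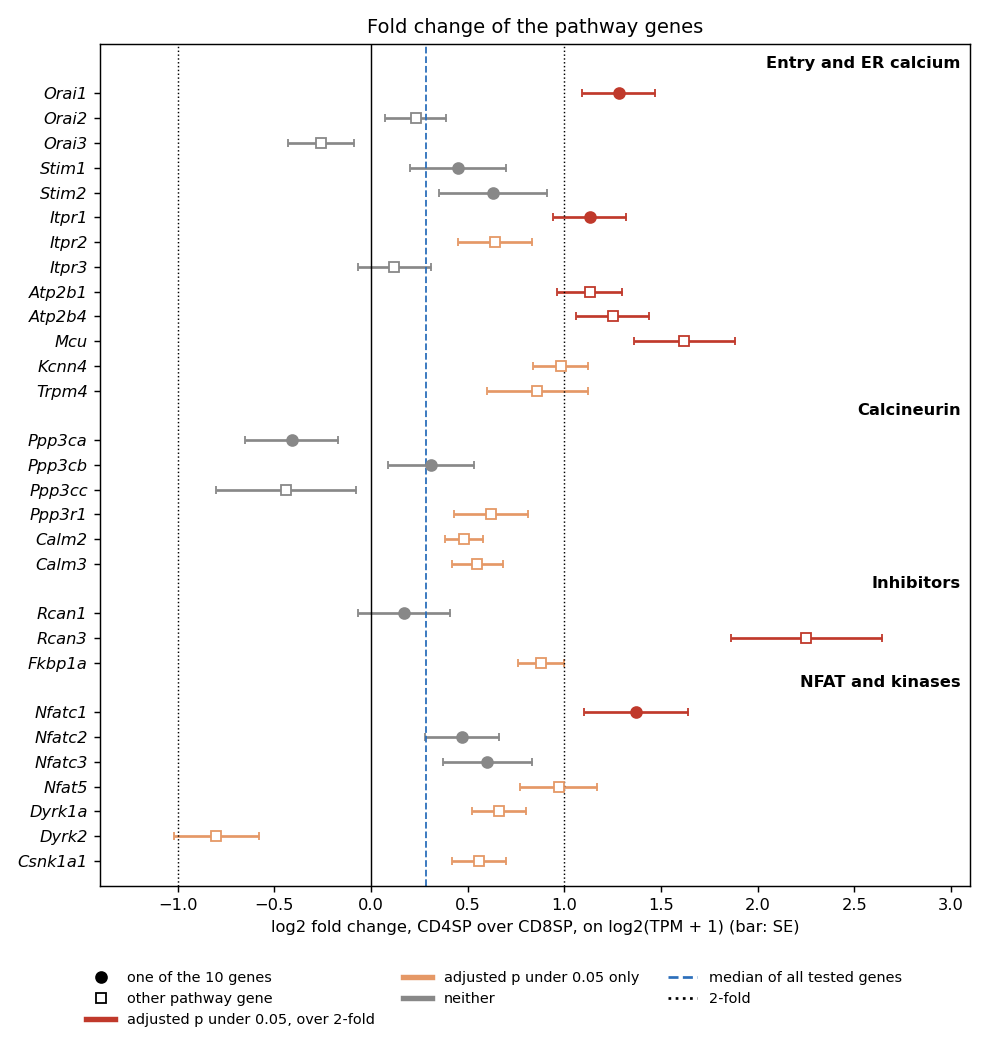
Log2 fold change (CD4SP over CD8SP, on log2(TPM + 1)) with its SE for the members, their tested paralogs and the pathway genes that passed on the adjusted p, ordered by role. Most points lie right of 0, and Nfatc1, Orai1, Itpr1, Atp2b1, Atp2b4, Mcu and Rcan3 pass both limits, while Ppp3ca, Ppp3cc, Orai3 and Dyrk2 lie left of 0.

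Genes known to be driven by NFAT were examined as a readout of the pathway's far end, using a list of 16 genes that includes Nfatc1 and Rcan1. Several of them were already known to be higher in CD4SP from earlier results, so their count is not independent evidence of a direction. Of 14 tested genes, 9 passed both limits toward CD4SP and 0 toward CD8SP by limma, beside 7.92% of all tested genes toward CD4SP. At an unadjusted p under 0.05 by limma, 0 were higher in CD8SP, beside 5.69% of all tested genes. Il4 and Cd40lg reached 1 TPM only in CD4SP libraries, so they could be called in that direction only, and without them 7 of 12 passed. Il2ra and Ctla4 are also among the 4 regulatory T cell markers given above. The cytokine gene Il2 was at 11.0, 17.7 and 11.1 TPM across the CD4SP libraries, against 3.45, 3.37 and 1.02 TPM across the CD8SP ones (log2 fold change 2.03, adjusted p 0.00593 by limma). Nr4a1, an early gene of antigen receptor signalling, was at 36.6, 40.4 and 30.1 TPM and 7.48, 6.09 and 6.26 TPM, respectively (2.26, adjusted p 0.000154 by limma). Egr2 and Irf4, other factors made after receptor signalling, had log2 fold changes of 2.38 and 1.19 (adjusted p 0.0104 and 0.0306 by limma). Il4 was at 8.16, 6.62 and 4.50 TPM in the 3 CD4SP libraries, while every CD8SP library listed it at 0. Cd40lg, which encodes the CD40 ligand, was at 40.1, 53.4 and 43.1 TPM in the CD4SP libraries and at 0.389 TPM in CD8SP replicate 2, and the other CD8SP libraries listed it at 0. The surface genes Il2ra and Ctla4 had log2 fold changes of 3.37 and 2.64.

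The targets differed in how they stood in CD4SP replicate 2. Il2, Egr2, Cd40lg, Nr4a1, Ifng and Csf2 had their highest CD4SP value in replicate 2, the CD4SP library with the lowest Nfatc1, Nfatc2 and Nfatc3. The share of all tested genes that were highest in it was not counted, and a link between these values and NFAT levels was not tested. Irf4 was lowest there, at 11.9 TPM against 27.5 and 16.1 TPM, and so were Ctla4, Pdcd1, Nfatc1 and Rcan1, beside 57.9% of all tested genes. Tnf and Pdcd1 passed on the adjusted p only (log2 fold changes 0.89 and 0.47, adjusted p 0.0298 and 0.0390 by limma). Ifng, the interferon gamma gene of cytotoxic and helper T cells, was at 68.3, 72.1 and 62.3 TPM across the CD4SP libraries, against 83.3, 83.4 and 78.2 TPM across the CD8SP ones, and did not pass (-0.27, adjusted p 0.144 by limma). Fasl overlapped between populations (adjusted p 0.305 by limma). Csf2 was at 3.46 TPM in CD4SP replicate 2 and listed at 0 in the others, and Egr3 was listed at 0 in all libraries.

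**Figure D4:**
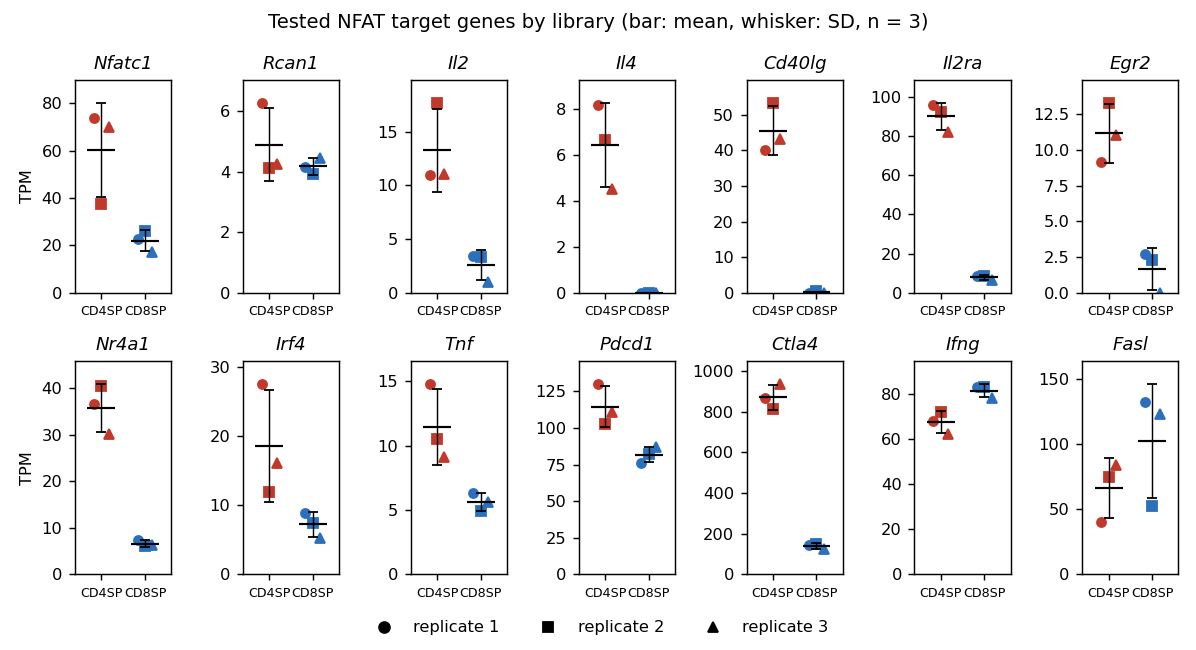
TPM of the 14 tested NFAT target genes in each library, one panel per gene with its own axis from 0, CD4SP in red and CD8SP in blue, with bars for the mean and whiskers for the SD (n = 3). The populations are apart for 11 genes with CD4SP above, Ifng has CD8SP above, and Rcan1 and Fasl overlap. All CD4SP libraries lay above all CD8SP libraries for 36.6% of all tested genes, and the share with all CD8SP libraries above was not counted. The 11 include Il4 and Cd40lg, which reached 1 TPM only in CD4SP libraries.

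TPM is scaled by length, but the libraries were made from amplified cDNA, and how evenly different genes were amplified was not tested. The orders below are therefore orders of TPM values and not of transcript numbers in the cells. In CD4SP libraries the order of the means was Nfatc3 (90.1 TPM), Nfatc1 (60.3), Ppp3cb (50.3), Orai1 (50.1), Nfatc2 (31.0), Stim1 (26.3), Ppp3ca (23.7), Stim2 (23.3), Itpr1 (14.0) and Rcan1 (4.89). Neighbours in this order had overlapping ranges over the 3 libraries except Orai1 and Nfatc2, and Itpr1 and Rcan1. In CD8SP libraries the order was Nfatc3 (56.8 TPM), Ppp3cb (39.2), Ppp3ca (30.7), Nfatc1 (22.0), Nfatc2 (22.0), Orai1 (20.3), Stim1 (18.5), Stim2 (13.9), Itpr1 (5.85) and Rcan1 (4.18). There the ranges of Nfatc1, Nfatc2, Orai1 and Stim1 overlapped from neighbour to neighbour, and the others were apart. Nfatc1 and Orai1 thus ranked above Ppp3ca in CD4SP and below it in CD8SP libraries.

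CD4SP replicate 2 had the lowest CD4SP value for 9 of the 10 genes, the exception being Itpr1, beside 57.9% of all tested genes. Among CD8SP libraries, replicate 3 was lowest for 6 of the 10, beside 56.3%. The difference of CD4SP replicate 2 from the mean of CD4SP replicates 1 and 3 on the log2(TPM + 1) scale was -0.93 for Nfatc1, -0.93 for Stim2, -0.87 for Nfatc3, -0.83 for Ppp3ca, -0.75 for Stim1 and -0.70 for Ppp3cb. These were larger drops than the median of all tested genes in this library, -0.23. Nfatc2 was at -0.42 and Rcan1 at -0.27, while Orai1 (-0.23) and Itpr1 (-0.08) were near that median or above it. Of the T cell and regulatory T cell genes compared, Lck was at -0.21, Ctla4 at -0.15, Cd4 at -0.11 and Ikzf2 at -0.38. Foxp3 was at -4.36 and Il2ra at 0.05. With this library left out, 8 of the 10 genes were higher in CD4SP on the adjusted p, the exceptions being Ppp3ca and Rcan1, against 27.6% of all genes tested in that fit. Only Nfatc1, Orai1 and Itpr1 passed 2-fold in it. With libraries weighted by their quality in limma, all 6 kept in the fit, 7 passed on the adjusted p, the same genes without Stim1, against 31.2% of all tested genes higher in CD4SP in that fit. Leaving out CD4SP replicate 2 raises the CD4SP mean of every gene for which it was lowest. With any other single library left out, only Nfatc1, Orai1 and Itpr1 passed on the adjusted p.

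**Figure D5:**
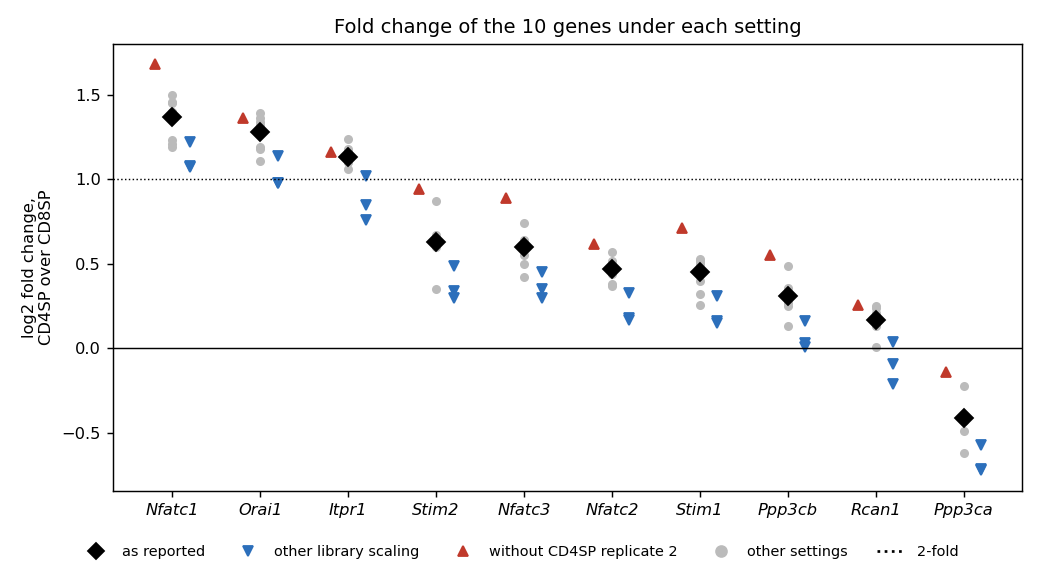
Log2 fold change of the 10 genes (CD4SP over CD8SP) as reported (black diamonds) and under each alternative, with other library scalings in blue, the fit without CD4SP replicate 2 in red and the remaining settings in grey. Nfatc1 stays above the dotted 2-fold line throughout, Orai1 and Itpr1 drop below it under 2 scalings, and only Rcan1 crosses 0.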

How the data were processed

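RNA-seq of 6 libraries was analysed. The authors aligned reads with HISAT2 to mm10, quantified transcripts with StringTie and deposited TPM values in a column for each library. TPM is corrected for transcript length and has the same total in every library, so a transcript class that takes more of one library lowers all other genes in it. The gene annotation, duplicate removal and use of strand were not given in the sources used here. TPM keeps no sequencing depth, so no depth, counting interval or detection floor is given, and errors are the SD or SE over libraries.

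The analysis used log2(TPM + 1), on which fold changes of weakly expressed genes come out too small. The 10476 genes that reached 1 TPM in 3 or more libraries were fitted with limma 3.58.1 in R 4.3.3 (population as the only term, eBayes with trend), with Benjamini-Hochberg adjustment over all of them. The study's DESeq2 needs counts and was not used. A gene was called at an adjusted p under 0.05 and over 2-fold, and separately at an adjusted p under 0.05 alone. Shares within paralog families were compared by an exact two-sided permutation test over the 20 assignments of libraries, whose smallest p is 0.1.

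The members, gene lists and tests were chosen with earlier results of these data known. Named genes were all members, their paralogs and the list genes passing either rule, with all others given as counts and marker genes by level. Further genes were picked with their values in view. The script was tested on simulated data. Alternatives were other scalings, filters, pseudocount, no trend, library weights, a replicate block, no fold threshold, leaving out each library, and averaging CD8SP replicates 1 and 2. Gene positions follow GENCODE M21 (GRCm38, as mm10). Transcripts were searched for near-identical copies by blastn 2.17.0, at 95% identity over 200 nt or more. Sequences are from RefSeq (GRCm38.p6). One marker gene and the sum that holds it are not reported here.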

Additional observations from a re-analysis of the deposited data

How the results depend on the processing

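The count of 3 called members moved to 1 after median-of-ratios rescaling and to 1 after quantile normalization, where Nfatc1 stayed past the 2-fold limit, and was 3 under every other setting, from 3 to 3 with one library left out. Both scalings move the median log2 fold change of all genes from 0.284 to 0.000 and -0.015. Under both, Ppp3ca was higher in CD8SP on the adjusted p alone, at -0.71 and -0.72 (adjusted p 0.0438 and 0.0430 by limma). The count of 7 called pathway genes became 4 and 4 under these scalings and 18 with no fold threshold, and lay between 7 and 11 with one library left out. The upper value came from leaving out CD4SP replicate 2. The count of 9 NFAT target genes lay between 6 and 9 in those fits. The only sign change among the 10 genes was that of Rcan1, at -0.09 after median-of-ratios rescaling and -0.21 after quantile normalization, and Rcan1 had no value with the filter of 5 TPM. Without one library, the Orai1 share differed by 16.3 to 18.4 percentage points, the Itpr1 share by 10.6 to 12.7, the Nfatc1 share by 10.1 to 12.6, the Nfatc3 share by -8.53 to -5.81 and the Ppp3cb share by 4.60 to 15.8. The Stim1 share crossed zero, from -6.35 to 0.814. Labels do not say that replicate numbers pair libraries, and deviations of same-numbered libraries correlated at -0.0168 to 0.0887 across genes. With the replicate block 3 members were called, and 997 genes in all against 1019. The unknown depth limits values of genes near 1 TPM.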
